A study of Mus musculus with 6 samples.

Results

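The genes described here carry fatty acids into cells, attach them to coenzyme A, store them as triglyceride and oxidise them in mitochondria. The list of 47 genes was matched by Ensembl gene ID to mouse symbols, and all 47 were found among the 57180 listed genes and passed the filter on low counts that left 18092 genes. The list names genes by function and its rule uses no measured value, but it was chosen with earlier results of these data known. The genes are described by step: uptake (6), activation and thioesterases (11), storage and lipolysis (6), regulators (2), the carnitine shuttle (3), acyl-CoA dehydrogenases (6), later steps of beta oxidation (7), electron transfer (3) and ketone bodies (3).

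Kidneys came from 6 wild-type male C57BL/6J mice that were 7 weeks old when obtained. The NP200 group (3 mice) received cationic polystyrene nanoparticles, small plastic beads with a positive surface charge, by mouth at 200 mg/kg once daily for 6 weeks, and the CON group (3 mice) received deionized water, labelled as 0 mg/kg. Each library held RNA of homogenised kidney from 1 mouse, so fewer cells of a type and less RNA per cell cannot be told apart. The NP200 libraries held 23585274, 23793640 and 19408534 expected counts and the CON libraries 26292760, 23748774 and 23420454, and the smallest count of any member in a library was 77. Values below are CPM, the share of a library's counts that fall on a gene after TMM scaling of the library sizes, and levels between genes are compared as CPM per kilobase of effective transcript length.

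Proximal tubule cells take up fatty acids from the blood and from filtered albumin and burn them as their main fuel. A fatty acid is first joined to coenzyme A, and long chains then cross into the mitochondrion as carnitine esters. Each turn of beta oxidation begins with an acyl-CoA dehydrogenase, whose electrons pass through electron transfer flavoprotein to the respiratory chain. The kidney also oxidises ketone bodies made by the liver. PPAR alpha, encoded by Ppara, is a nuclear receptor that switches on many of these genes.

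Kidney markers were abundant in every library. The 10 proximal tubule markers summed to 15898 CPM in NP200 1 and to 18499 and 19191 CPM in NP200 2 and 3, against 18848 to 19334 CPM in CON kidneys. Of these markers 7 were negative and 3 positive. Keg1 was lower in every NP200 kidney than in any CON kidney (log2 fold change -0.53, SE 0.14). Slc5a12 was higher in every NP200 kidney (0.19, SE 0.07), and in the rest the groups overlapped. NP200 1 stood apart from the other libraries. It held the lowest value of 27 of the 47 members, or 57.4%, and of 15 of the 19 genes from the carnitine shuttle to electron transfer, where it held the lowest value of 19.4% of all genes tested. It also held the lowest value of 7 of the 10 proximal tubule markers. Counts of 9 adipocyte markers summed to 3053 in NP200 1 and 693 in CON 3, and to 3 to 20 in each of the other 4 libraries. For Adipoq, which encodes adiponectin from fat cells, there were 444, 0 and 2 counts in NP200 mice 1, 2 and 3, against 0, 1 and 130 counts in CON mice 1, 2 and 3. Urothelium markers summed to 429 counts in NP200 1 and to 40 to 140 in each of the others. All 5 erythrocyte markers were negative, each with an unadjusted edgeR p under 0.05, at log2 fold changes of -0.39 to -0.59. Their sums were 488 to 626 CPM in NP200 kidneys, against 579 to 861 CPM in CON kidneys. In Hbb-bt and Alas2 the groups did not overlap. The part of erythrocyte transcripts in the results was not tested. Without NP200 1, 29 of the 47 members changed sign or moved by over 1.5 times on the log2 fold scale. Cpt2 and Dgat1, whose groups did not overlap with all libraries, were among them. This rule also counts small shifts near 0, such as Slc27a4 from 0.022 to 0.011. Leaving out CON 3 moved members too, such as Acsl3 from 0.04 to 0.14. The same count was not made for the other libraries or over all genes. With all libraries edgeR called no member at all. Values without NP200 1 are given below for each step and for the members the results turn on.

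Lpl, Acsm3, Cd36, Acadm and Oxct1 had lower levels in every NP200 kidney than in any CON kidney, and are among 8 members with that pattern. Slc27a1, Dgat1 and Acaa2 had higher levels in every NP200 kidney. In 35 of the 47 members the groups overlapped and the unadjusted p was over 0.05. Lpl was at 0.707 of its CON level, Acsm3 at 0.723, Cd36 at 0.793, Acadm at 0.821 and Oxct1 at 0.862, as fitted by edgeR. Slc27a1 was at 1.22 of its CON level. None of these passed edgeR's test over all genes. With edgeR's quasi-likelihood test and Benjamini-Hochberg adjustment over 18092 genes, 0 of 47 members had an adjusted p under 0.05, and the share over all genes was 0%, with the lowest adjusted p at 0.156. DESeq2 called 3 members, Lpl (adjusted p = 1.02e-05), Acsm3 (0.00488) and Cd36 (0.0456), all lower, among 55 genes called. It was given the 31335 genes with any count, and how many kept an adjusted p after its own filter was not recorded. By limma-voom 0 members were called, and 10 had an unadjusted p under 0.05, where the share over all genes was 7.19%.

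At an unadjusted edgeR p under 0.05 there were 10 members, or 21.3%, where the share over all genes was 7.42%. Of these 9 were lower, or 19.1%, against 3.61% of all genes, and 1 was higher, or 2.13%, against 3.8% of all genes. The groups did not overlap in 11 members, or 23.4%, against 12.9% of all genes, with 8 lower (6.32% of all genes) and 3 higher (6.54% of all genes). These shares are a description: members were measured in the same 6 kidneys and are not independent of each other. Members were also chosen with earlier results of these data known, and the part of that choice in the shares was not tested. Without CON 2 the count at an unadjusted p under 0.05 was 5, or 10.6%, against 4.09% of all genes in that fit. The median log2 fold change over the 47 members was -0.026, against 0.0068 over all genes, with 26 members negative and 21 positive, and it was 0.014 without NP200 1. All 47 of the 95% confidence intervals excluded a 2-fold difference in either direction, and 43 excluded a 1.5-fold difference. The 4 that did not exclude a 1.5-fold difference were Lpl, Acsm3, Pnpla2 and Lipe.

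**Figure D1:**
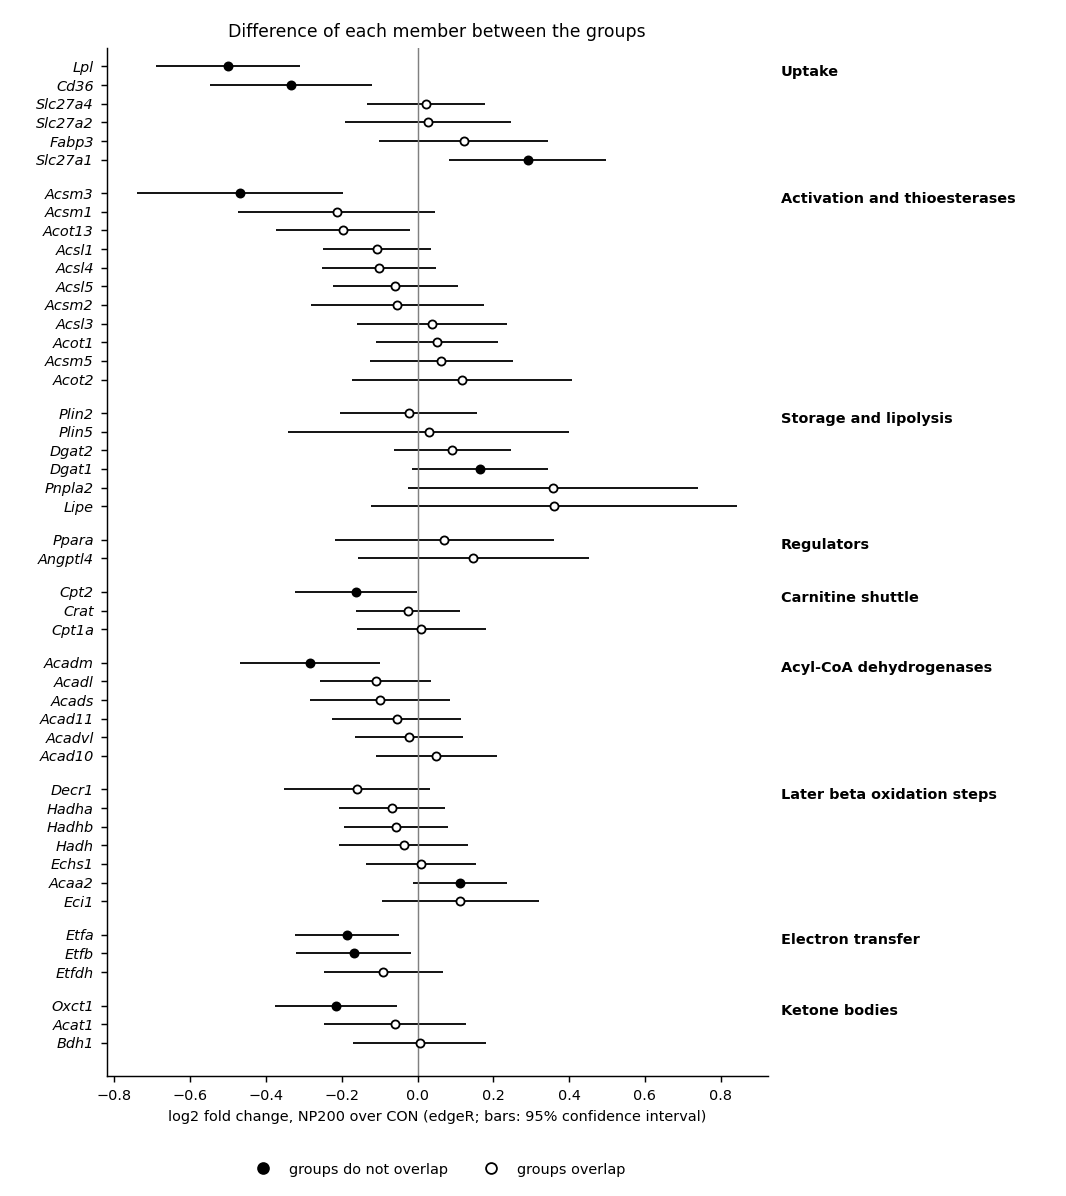
Points give the log2 fold change of each of the 47 members, NP200 over CON, by step, with 95% confidence intervals, and filled points mark the 11 members whose groups did not overlap. The lowest is Lpl at -0.50 and the highest is Lipe at 0.36, whose groups overlap.

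Per length, Acsm2 was the most abundant member, at 2472 ± 319 in NP200 and 2595 ± 152 in CON kidneys (CPM per kilobase, SD, n = 3 each), followed by Slc27a2 at 2249 ± 243 in NP200 and 2226 ± 82.4 in CON kidneys (SD, n = 3 each). These levels did not differ beyond the spread between mice. Acsm3, Acadm, Oxct1 and Cd36 came next in that order, each with a lower level in NP200 kidneys. Lipe and Plin5 were the least abundant per length, at 5.74 ± 2.13 in NP200 and 4.30 ± 0.595 in CON kidneys for Lipe and 2.16 ± 0.114 in NP200 and 2.11 ± 0.291 in CON kidneys for Plin5 (CPM per kilobase, SD, n = 3 each).

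**Figure D2:**
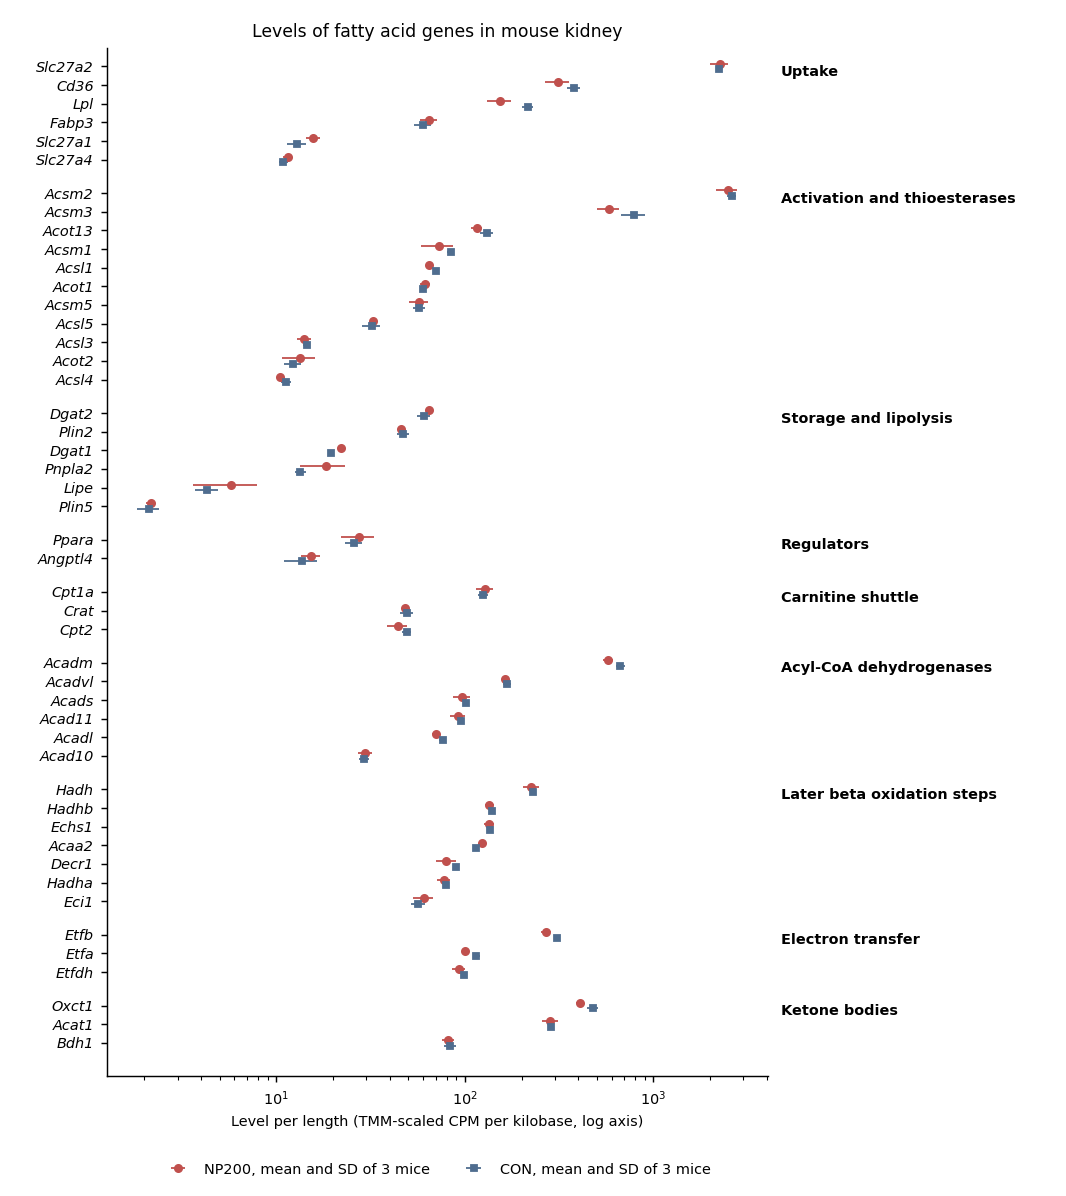
Points give the mean level of each member per length in CPM per kilobase on a log axis, with the SD of 3 mice, NP200 as circles and CON as squares, ordered within each step. Members span about 3 orders of magnitude, with Acsm2 and Slc27a2 at the top and Plin5 at the bottom.

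Promoter windows from RefSeq (GRCm38.p6), 250 bases before to 50 bases after an annotated start, were found for 38 of the 47 members. The 4 shown were picked by hand from members with lower values in NP200 kidneys. They are Cd36 and Acadm, which are classical PPAR alpha targets, and Etfa and Etfb. The products of Etfa and Etfb form 1 protein, and the differences of these 2 genes were of like size. Capitals mark AGGTCA, the half-site bound by nuclear receptors, or CCAAT, a common promoter element, on either strand. The 2 motifs do not overlap in these windows.
Cd36, chr5:17835847-17836146, minus strand: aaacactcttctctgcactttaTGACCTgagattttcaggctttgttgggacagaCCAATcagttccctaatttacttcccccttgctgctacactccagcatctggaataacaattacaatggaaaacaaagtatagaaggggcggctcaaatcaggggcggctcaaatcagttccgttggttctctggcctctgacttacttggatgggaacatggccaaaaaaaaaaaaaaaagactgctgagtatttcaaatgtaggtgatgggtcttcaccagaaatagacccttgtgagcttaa
Acadm, chr3:153944594-153944893, minus strand: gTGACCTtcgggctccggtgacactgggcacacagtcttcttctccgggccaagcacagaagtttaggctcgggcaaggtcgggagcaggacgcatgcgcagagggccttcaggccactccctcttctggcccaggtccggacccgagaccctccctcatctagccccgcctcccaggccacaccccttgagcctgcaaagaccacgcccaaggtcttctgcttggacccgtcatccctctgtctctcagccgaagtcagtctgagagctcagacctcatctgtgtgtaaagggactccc
Etfa, chr9:55512194-55512493, minus strand: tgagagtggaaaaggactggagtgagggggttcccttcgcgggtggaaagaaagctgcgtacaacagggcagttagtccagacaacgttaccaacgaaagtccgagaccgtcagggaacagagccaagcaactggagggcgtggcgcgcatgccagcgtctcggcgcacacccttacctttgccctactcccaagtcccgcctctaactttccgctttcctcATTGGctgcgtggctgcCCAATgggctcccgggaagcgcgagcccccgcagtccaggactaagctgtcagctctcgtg
Etfb, chr7:43443822-43444121, plus strand: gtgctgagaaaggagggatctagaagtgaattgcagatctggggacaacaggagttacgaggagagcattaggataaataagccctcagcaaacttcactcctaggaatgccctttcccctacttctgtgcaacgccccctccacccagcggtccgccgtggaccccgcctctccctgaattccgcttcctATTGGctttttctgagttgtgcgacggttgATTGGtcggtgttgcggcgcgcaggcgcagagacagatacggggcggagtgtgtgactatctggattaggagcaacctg
AGGTCA was present in 10 of 45 member windows, or 22.2%, and in 16.3% of the 32851 windows of all genes. Besides Cd36 and Acadm, it was in windows of Acadvl, Acsm1, Cpt1a, Echs1, Plin2, Plin5 and Slc27a2, whose groups overlapped. CCAAT was present in 19 of 45 member windows, or 42.2%, and in 37.4% of all windows. The members with it include some whose groups overlapped, such as Etfdh, Hadh and Acsl1. The direct repeat that PPAR alpha binds with its partner, searched as 2 copies of AGGTCA on the same strand with 1 base between them, which therefore contains the half-site, had no exact match on either strand in the 45 member windows and was in 0.0396% of all windows. No match says only that these letters are not in these windows. Relative to the start, the half-site lies at -228 in Cd36 and at -249 in Acadm, both on the opposite strand. Etfa holds CCAAT at -28 and -11, and Etfb holds it at -59 and -29. A match is a description of letters and not a bound site.

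At the uptake step 2 of 6 genes were negative, with or without NP200 1. Lpl and Cd36 had lower values and Slc27a1 higher values in every NP200 kidney than in any CON kidney. Lpl (ENSMUSG00000015568) encodes lipoprotein lipase, which frees fatty acids from circulating triglyceride at the capillary wall. It measured 424, 389 and 467 CPM in NP200 mice 1, 2 and 3, against 561, 657 and 593 CPM in CON mice 1, 2 and 3. The highest NP200 kidney was below the lowest CON kidney. The means were 427 ± 39.2 CPM in NP200 and 603 ± 49.0 CPM in CON kidneys (SD, n = 3 each), with a log2 fold change of -0.50 (SE 0.09, 95% interval -0.69 to -0.31). Its unadjusted p of 0.000138 ranked 10 among 18092 genes (edgeR, adjusted p = 0.248). Fat cells also express Lpl. NP200 1, with 3053 adipocyte marker counts, measured 424 CPM, and the part of the adipocyte transcripts was not tested. Without NP200 1 the log2 fold change was -0.49, and without NP200 1 and CON 3 it was -0.50.

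Cd36 (ENSMUSG00000002944), a membrane protein that binds and imports long-chain fatty acids, measured 519, 641 and 645 CPM in NP200 mice 1, 2 and 3, against 774, 809 and 694 CPM in CON mice 1, 2 and 3. NP200 1 was the lowest and CON 3 the nearest of the CON kidneys to the NP200 group. The log2 fold change was -0.33 (SE 0.10, 95% interval -0.55 to -0.12, edgeR, unadjusted p = 0.00550, adjusted p = 0.501). It was -0.24 without NP200 1 and -0.39 without CON 3, the libraries with 3053 and 693 adipocyte marker counts. The part of the adipocyte transcripts in the Cd36 difference was not tested. Capillary endothelium and macrophages also express Cd36. The 6 endothelium markers summed to 354 to 400.1 CPM in NP200 and 359.7 to 379 CPM in CON kidneys, with 3 negative and 3 positive. The 6 macrophage markers were all negative and summed to 89.5 to 94.3 CPM in NP200 kidneys, against 98.1 to 106.8 CPM in CON kidneys. Each marker on both lists had counts in every library, and their part in the difference was not tested.

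Slc27a1 (ENSMUSG00000031808), a fatty acid transport protein of muscle and fat, was the only uptake gene with higher values in every NP200 kidney, at 36.1, 39.6 and 33.6 CPM in NP200 kidneys, against 30.5, 26.5 and 32.5 CPM in CON kidneys. Its log2 fold change was 0.29 (SE 0.09, 95% interval 0.08 to 0.50, edgeR, unadjusted p = 0.0104, adjusted p = 0.541). Without NP200 1 it was 0.30. Slc27a1 made up 0.696% ± 0.110 in NP200 and 0.574% ± 0.0745 in CON kidneys (SD, n = 3 each) of the summed level per length of the 3 Slc27a members. Slc27a2, which both transports fatty acids and activates very long chains and is the main form in the proximal tubule, made up 98.8% ± 0.190 in NP200 and 98.9% ± 0.110 in CON kidneys (SD, n = 3 each). Slc27a2 measured 3690.0, 4316 and 4380.1 CPM in NP200 kidneys, against 4167, 4033 and 3956 CPM in CON kidneys, and the groups overlapped (log2 fold change 0.03, SE 0.10, 95% interval -0.19 to 0.25). On the log2 fold scale Slc27a4, another transport protein, was at 0.02 (SE 0.07) and Fabp3, a cytosolic carrier of fatty acids, at 0.12 (SE 0.10), with overlapping groups.

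**Figure D3:**
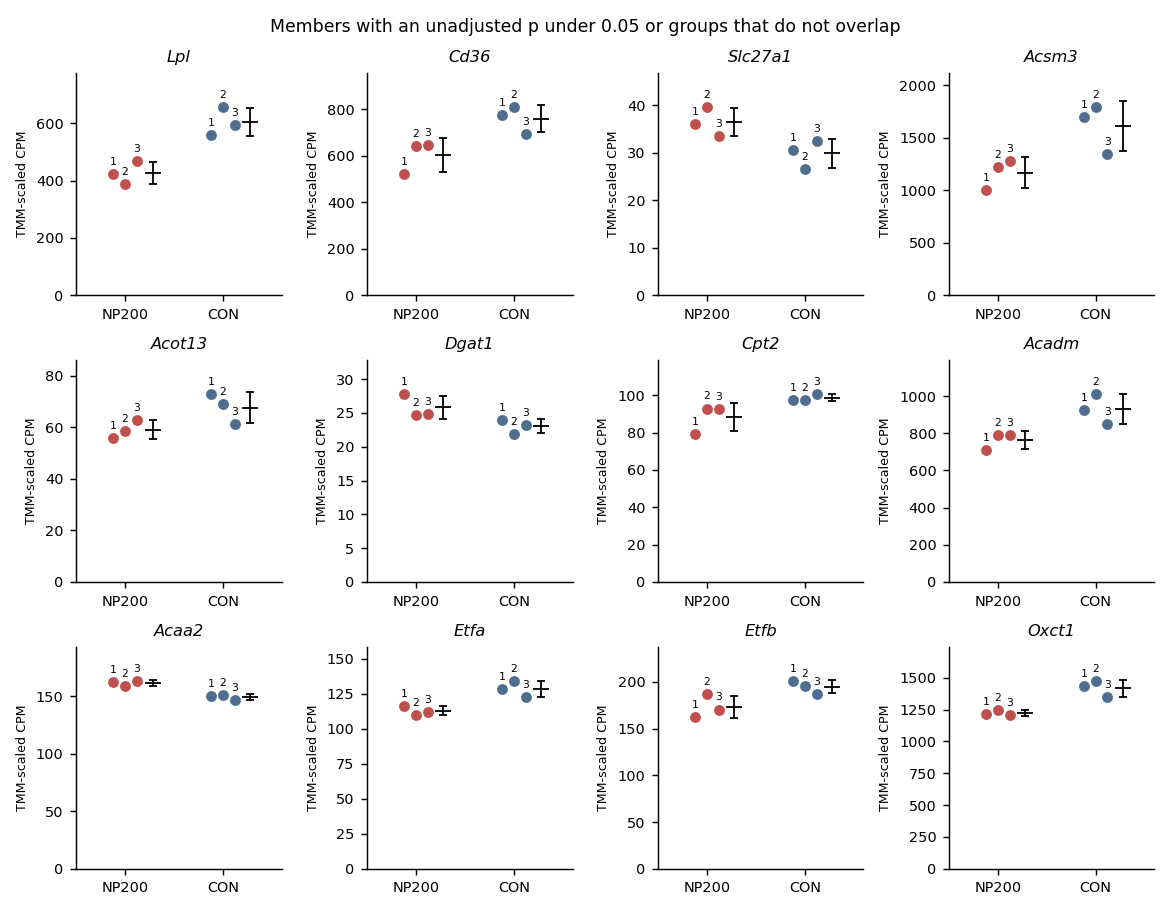
Each panel gives the TMM-scaled CPM of 1 member in the 3 NP200 and 3 CON kidneys, numbered by mouse, with the group mean and SD beside them and axes that start at 0. The 12 panels are the members chosen for an unadjusted edgeR p under 0.05 or groups that do not overlap. That the groups do not overlap in 11 of them follows from this choice. Among all 47 members the share is 23.4%, against 12.9% of all genes. In Acot13 CON 3 lies among the NP200 kidneys.

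Among the enzymes that join fatty acids to coenzyme A, Acsm3 had lower values in every NP200 kidney. Its groups were the only ones of the 11 activation genes that did not overlap, where the share over all genes was 12.9%. Acsm3 (ENSMUSG00000030935) is a mitochondrial synthetase for medium chains and measured 998, 1223 and 1275 CPM in NP200 mice 1, 2 and 3, against 1702, 1793 and 1342 CPM in CON mice 1, 2 and 3. Every NP200 kidney was below every CON kidney, with CON 3 close to NP200 3. The log2 fold change was -0.47 (SE 0.12, 95% interval -0.74 to -0.20, edgeR, unadjusted p = 0.00311, adjusted p = 0.501). Without NP200 1 it was -0.37 (edgeR, adjusted p = 0.427) and without CON 3 -0.58 (adjusted p = 0.258). With both left out it was -0.48, and only then did edgeR call it (adjusted p = 0.0335). Per length Acsm3 made up 18.2% ± 0.948 in NP200 and 22.3% ± 1.76 in CON kidneys (SD, n = 3 each) of the 4 Acsm members, and Acsm2 made up 77.7% ± 1.17 in NP200 and 73.6% ± 1.44 in CON kidneys (SD, n = 3 each).

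Acsm2, the most abundant of this family, measured 4012, 4779 and 4829 CPM in NP200 kidneys, against 4805, 4736 and 4596 CPM in CON kidneys. Its groups overlapped, NP200 1 was the lowest of the 6, and the log2 fold change was -0.05 (SE 0.10, 95% interval -0.28 to 0.17) and 0.03 without NP200 1. Acsm1 had a log2 fold change of -0.21 (SE 0.12), which was -0.07 without NP200 1, and Acsm5 one of 0.06 (SE 0.09). Acsm genes are similar neighbours, so some reads may be divided among them.

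The 4 long-chain synthetases differed little. Acsl1, which made up 53.1% ± 1.50 in NP200 and 55.0% ± 0.705 in CON kidneys (SD, n = 3 each) of their summed level per length, was at -0.11 (SE 0.06) as a log2 fold change. The same quantity for Acsl3 was 0.04 (SE 0.09), for Acsl4 -0.10 (SE 0.07) and for Acsl5 -0.06 (SE 0.07), and the groups overlapped in all 4. The thioesterases reverse activation. Acot13 (ENSMUSG00000006717), a thioesterase found at mitochondria, measured 55.8, 58.7 and 62.9 CPM in NP200 kidneys, against 73.0, 68.9 and 61.2 CPM in CON kidneys, with CON 3 among the NP200 values (log2 fold change -0.20, SE 0.08, 95% interval -0.37 to -0.02; edgeR, unadjusted p = 0.0322, adjusted p = 0.636). Acot1 and Acot2, which act in the cytosol and in mitochondria, are close copies whose read division is uncertain, and the log2 fold change was 0.05 (SE 0.07) for Acot1 and 0.12 (SE 0.13) for Acot2, which was 0.25 without NP200 1.

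Genes of storage and lipolysis were mostly positive, 5 of 6, with CON 2 the lowest kidney in 4 of 6 and a median log2 fold change of 0.13, and 0 of 6 had an unadjusted edgeR p under 0.05. NP200 1 was the highest kidney in 3 of 6, and without it the median was 0.067, with 5 of 6 positive. Dgat1 (ENSMUSG00000022555), which catalyses the last step of triglyceride synthesis, measured 27.8, 24.8 and 24.9 CPM in NP200 kidneys, against 24.0, 21.9 and 23.2 CPM in CON kidneys. The groups did not overlap, with a log2 fold change of 0.16 (SE 0.08, 95% interval -0.01 to 0.34), and 0.11 without NP200 1. Dgat2, which catalyses the same step, measured 126, 134 and 129.9 CPM in NP200 kidneys, against 130.1, 112 and 124 CPM in CON kidneys. Plin2, the main coat protein of lipid droplets outside fat, measured 68.1, 77.4 and 76.8 CPM in NP200 kidneys, against 82.5, 68.9 and 74.4 CPM in CON kidneys. In Dgat2 and Plin2 the groups overlapped, with a log2 fold change of 0.09 (SE 0.07) for Dgat2 and -0.02 (SE 0.08) for Plin2, which was 0.04 without NP200 1. Plin5, a coat protein of oxidative tissues, was at 0.03 (SE 0.17) on the same scale.

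The 2 lipases had 1 high kidney. Pnpla2, which encodes adipose triglyceride lipase, measured 34.7, 23.8 and 19.9 CPM in NP200 kidneys, against 19.5, 18.9 and 23.1 CPM in CON kidneys. Lipe, which encodes hormone-sensitive lipase, measured 21.4, 12.2 and 10.7 CPM in NP200 kidneys, against 11.9, 10.5 and 12.3 CPM in CON kidneys. In both, NP200 1 was the highest and the remaining 5 kidneys lay close together. The log2 fold change of Pnpla2 was 0.36 (SE 0.17), and 0.10 without NP200 1. That of Lipe was 0.36 (SE 0.22), and -0.01 without NP200 1, the kidney with 3053 adipocyte marker counts. Both lipases are also fat cell genes, and the part of the adipocyte transcripts was not tested.

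The 2 regulators did not differ beyond the spread between mice. Ppara measured 48.8, 69.0 and 68.9 CPM in NP200 kidneys, against 57.9, 52.9 and 66.7 CPM in CON kidneys, with NP200 1 the lowest of the 6 and a log2 fold change of 0.07 (SE 0.13, 95% interval -0.22 to 0.36). Without NP200 1 it was 0.22 and without NP200 1 and CON 3 0.32, and edgeR did not call it. Angptl4, a secreted inhibitor of lipoprotein lipase and a PPAR target, measured 27.4, 34.6 and 27.8 CPM in NP200 kidneys, against 23.1, 24.8 and 33.3 CPM in CON kidneys (log2 fold change 0.15, SE 0.14, 95% interval -0.16 to 0.45). Both pairs of groups overlapped.

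In the carnitine shuttle, Cpt1a, the outer membrane transferase that limits the entry of long chains, measured 415, 497 and 473 CPM in NP200 kidneys, against 474, 448 and 455 CPM in CON kidneys. The groups overlapped, and the log2 fold change was 0.01 (SE 0.08, 95% interval -0.16 to 0.18), and 0.08 without NP200 1. Cpt2 (ENSMUSG00000028607), the inner membrane transferase, measured 79.4, 92.9 and 92.4 CPM in NP200 kidneys, against 97.6, 97.7 and 101 CPM in CON kidneys. Every NP200 kidney was below every CON kidney (log2 fold change -0.16, SE 0.07; edgeR, unadjusted p = 0.0481, adjusted p = 0.670), but without NP200 1 the log2 fold change was -0.09. Crat, which moves acetyl groups onto carnitine, measured 110.1, 119 and 116 CPM in NP200 kidneys, against 118, 112 and 121 CPM in CON kidneys and overlapped (log2 fold change -0.03, SE 0.06).

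Of the 6 acyl-CoA dehydrogenases, 5 had negative log2 fold changes. In 1 of the 6 the groups did not overlap, where the share over all genes was 12.9%. Without NP200 1 the count was 3 negative and 3 positive. Acadm (ENSMUSG00000062908), the medium-chain enzyme, measured 707, 789 and 793 CPM in NP200 mice 1, 2 and 3, against 923, 1012 and 852 CPM in CON mice 1, 2 and 3. The highest NP200 kidney was below the lowest CON kidney, which was CON 3. The log2 fold change was -0.28 (SE 0.08, 95% interval -0.47 to -0.10, edgeR, unadjusted p = 0.00642, adjusted p = 0.507), and it was -0.23 without NP200 1. Acadm made up 56.0% ± 0.389 in NP200 and 58.6% ± 1.16 in CON kidneys (SD, n = 3 each) of the summed level per length of the 6 dehydrogenases. Acadvl, the very long-chain enzyme, made up 16.0% ± 0.576 in NP200 and 14.7% ± 0.259 in CON kidneys (SD, n = 3 each). Acadvl measured 288, 309 and 310.4 CPM in NP200 kidneys, against 312, 317 and 292 CPM in CON kidneys, with overlapping groups (log2 fold change -0.02, SE 0.06), and the log2 fold change was 0.01 without NP200 1. The long-chain enzyme Acadl was at a log2 fold change of -0.11 (SE 0.07), and -0.07 without NP200 1. The short-chain enzyme Acads was at -0.10 (SE 0.08), and -0.0038 without NP200 1. Acad10 was at 0.05 (SE 0.07) and Acad11 at -0.06 (SE 0.08), which without NP200 1 were 0.11 and 0.03, and the groups overlapped in these 4.

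The later steps of beta oxidation showed no common direction, with 4 of 7 negative, 3 positive and 0 with an unadjusted edgeR p under 0.05, and 3 negative and 4 positive without NP200 1. Hadh, the short-chain hydroxyacyl-CoA dehydrogenase, measured 321, 387 and 372 CPM in NP200 kidneys, against 369, 361 and 378 CPM in CON kidneys. Hadha and Hadhb encode the 2 subunits of the trifunctional protein, which completes the cycle on long chains. Hadha measured 158, 174 and 161 CPM in NP200 kidneys, against 178, 171 and 168 CPM in CON kidneys. Hadhb measured 245, 234 and 229 CPM in NP200 kidneys, against 244, 255 and 237 CPM in CON kidneys. The groups overlapped in all 3 genes, with a log2 fold change of -0.04 (SE 0.08) for Hadh, -0.07 (SE 0.06) for Hadha and -0.06 (SE 0.06) for Hadhb.

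Acaa2 (ENSMUSG00000036880), the mitochondrial thiolase that releases acetyl-CoA, was higher in every NP200 kidney than in any CON kidney, at 162, 159 and 163 CPM in NP200 kidneys, against 150.2, 151 and 147 CPM in CON kidneys. The difference was small, with a log2 fold change of 0.11 (SE 0.06, 95% interval -0.01 to 0.24, edgeR, unadjusted p = 0.0746, adjusted p = 0.696). On the same scale Echs1, an enoyl-CoA hydratase, was at 0.01 (SE 0.07). Of the enzymes that prepare unsaturated chains, Eci1 was at 0.11 (SE 0.09), and 0.20 without NP200 1, and Decr1 was at -0.16 (SE 0.09), and -0.06 without NP200 1. The groups overlapped in these 3 genes.

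All 3 electron transfer genes had negative log2 fold changes, with or without NP200 1. Etfa (ENSMUSG00000032314) and Etfb (ENSMUSG00000004610) encode the subunits of electron transfer flavoprotein, whose promoters are printed above. Etfa measured 116, 109.8 and 112 CPM in NP200 kidneys, against 128, 134 and 122 CPM in CON kidneys. Etfb measured 163, 187 and 170.5 CPM in NP200 kidneys, against 201, 196 and 187 CPM in CON kidneys. In both genes every NP200 kidney was below every CON kidney, with CON 3 the lowest of the CON group. The margin was narrow for Etfb, with NP200 2 at 186.6 CPM and CON 3 at 187.4 CPM. The log2 fold changes were -0.19 (SE 0.06, 95% interval -0.32 to -0.05) for Etfa and -0.17 (SE 0.07, 95% interval -0.32 to -0.02) for Etfb, at edgeR unadjusted p values of 0.0128 and 0.0320 and adjusted p values of 0.574 and 0.636. Etfdh, the oxidoreductase that passes these electrons to ubiquinone, overlapped, with a log2 fold change of -0.09 (SE 0.07) that was -0.02 without NP200 1.

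Of the ketone body genes, Oxct1 (ENSMUSG00000022186), which activates acetoacetate and so commits ketone bodies to oxidation, measured 1214, 1248 and 1204 CPM in NP200 mice 1, 2 and 3, against 1432, 1476 and 1346 CPM in CON mice 1, 2 and 3. All NP200 kidneys lay below all CON kidneys (log2 fold change -0.21, SE 0.07, 95% interval -0.38 to -0.05; edgeR, unadjusted p = 0.0140, adjusted p = 0.588). Without NP200 1 the log2 fold change was -0.21. Acat1, the thiolase that follows it, measured 732, 855 and 890.2 CPM in NP200 kidneys, against 882, 879 and 819.9 CPM in CON kidneys, and NP200 1 was the lowest. Its log2 fold change was -0.06 (SE 0.08), and that of Bdh1, which interconverts the ketone bodies, was 0.01 (SE 0.08), with overlapping groups in both. Without NP200 1 both were positive, at 0.02 for Acat1 and 0.05 for Bdh1.

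**Figure D4:**
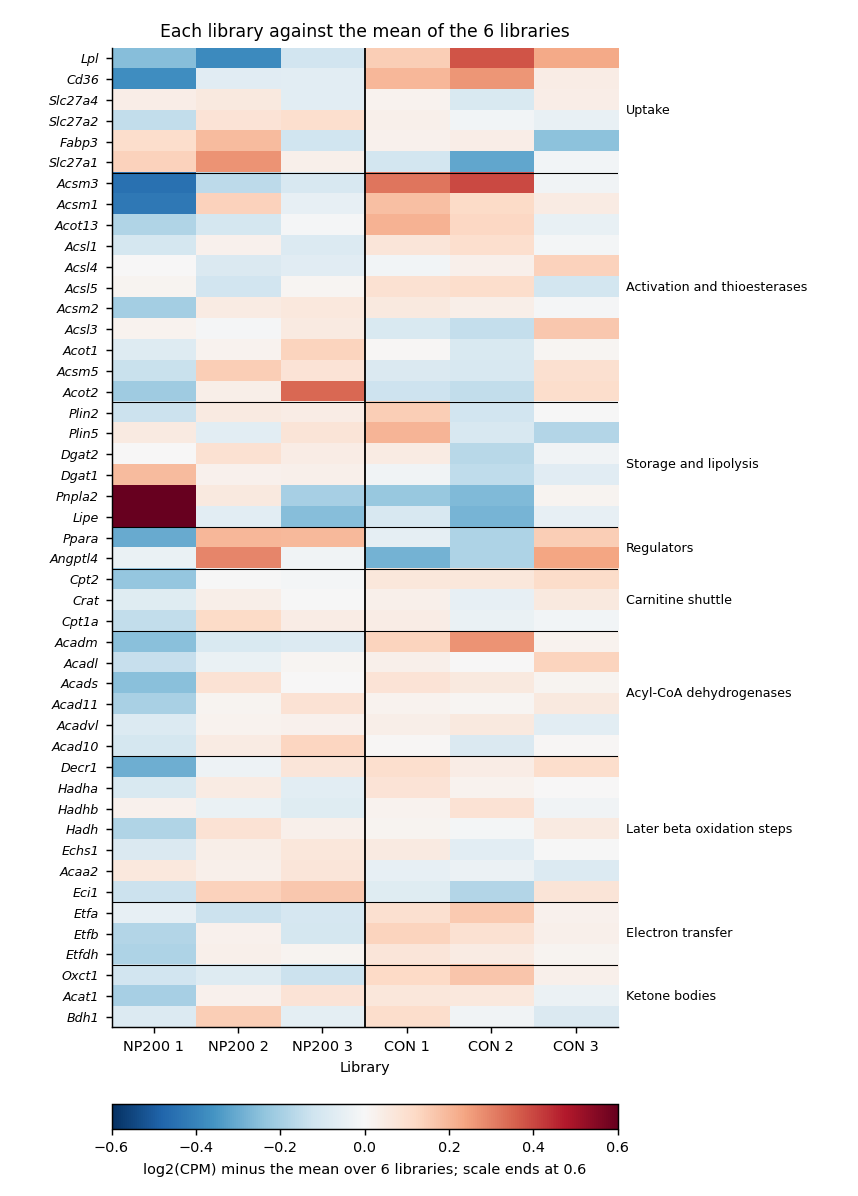
Colours give the log2 CPM of each member in each library minus its mean over the 6 libraries, NP200 left of CON, with members grouped by step and ordered by fold change within it. The NP200 1 column is blue through most of the oxidation steps and dark red for Pnpla2 and Lipe, the 2 values beyond the end of the colour scale.

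In 6 of the 8 members with all NP200 below all CON kidneys, CON 3 was the lowest of the CON group, and in 5 of the 8 NP200 1 was the lowest of the NP200 group. Lpl and Cpt2 were the exceptions among the CON kidneys, with CON 1 lowest. Both held in 4 of the 8, Cd36, Acsm3, Acadm and Etfb. The log2 fold changes of Lpl, Etfa and Oxct1 without NP200 1 (-0.49, -0.21 and -0.21) were close to those with it.

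A further 80 genes of the pathway that are not on the list, such as other fatty acid binding proteins, synthetases, droplet proteins and regulators, gave 74 above the filter. Of these 0 had an adjusted p under 0.05, and 3 had an unadjusted edgeR p under 0.05, all lower. That is 4.05%, against 7.42% of all genes, so the count is not above the background. The 3 genes were Acot11, a thioesterase (log2 fold change -0.28, SE 0.10), Fitm2, which helps lipid droplets form (-0.16, SE 0.07), and Slc16a1, a carrier of lactate and ketone bodies (-0.29, SE 0.13). The groups did not overlap in 3 of the 74, with 2 lower and 1 higher, where the share over all genes was 12.9%. Hilpda, a droplet protein that inhibits Pnpla2 and is named after its values were seen, was the higher 1. It had higher values in every NP200 kidney at under 2 CPM (0.34, SE 0.22). The median over the 74 was -0.01, with 40 negative and 34 positive.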

How the data were processed

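Tools named in the submitters' processing notes are RSEM 1.3.3, STAR 2.7.9a, FastQC and Trim Galore 0.6.6, with GRCm39 as the genome build. Annotation release and strand setting were not given in the sources used here. Whether reads of overlapping genes were told apart is therefore not known. Per the file headers, the authors deposited RSEM expected counts and TPM per gene, 1 table per library. RSEM divides reads that fit several genes, and 10.4% to 11.1% of listed values were not whole. The deposited TPM served only as an alternative.

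Symbols came from GENCODE gene IDs (51884 of 57180 matched). Rounding of the expected counts preceded the filter on low counts (filterByExpr) and TMM scaling, and edgeR 4.0.16 gave the test (R 4.3.3; quasi-likelihood, group as the only term), with Benjamini-Hochberg adjustment at 0.05. SE is the log2 fold change over the root of F. A member's 95% interval extended by a median of 0.18 log2 units each way. These steps were tested on simulated data. Alternatives used DESeq2 1.42.0, limma 3.58.1, other scalings and left-out libraries. Levels per length divide CPM by the deposited effective length.

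The members, related genes, markers and left-out pair of libraries were chosen with earlier results of these data known. Described in full were members with an unadjusted p under 0.05 or groups that do not overlap, the 2 most abundant of each step and a fixed set, and, after their values were seen, Pnpla2 and Lipe.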

Additional observations from a re-analysis of the deposited data

How the results depend on the processing

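Over 15 alternatives 25 of the 47 members kept their sign, including all 12 with an unadjusted p under 0.05 or groups that do not overlap. Those 12 were picked for clear differences in these same libraries, so their kept sign is no separate test. The other 22 of the 47 members changed sign in 53 fits, in none of which they were called. Their values after the change were no larger than 0.10 in size, but some were larger with all libraries. Lipe was at 0.36 with all libraries and at -0.01 without NP200 1. DESeq2, given the 31335 genes with any count, called 55 genes and 3 of the 47 members. Scaling by library size alone gave a member median of 0.016. On log2(TPM + 1) there were 6 members at an unadjusted p under 0.05 (5.36% of all genes), 7 without overlap (9.46% of all genes) and a median of 0.033. Leaving out each library in turn gave 0 to 10 called genes, 0 called members and medians of -0.052 to 0.014. There were 5 to 12 members at an unadjusted p under 0.05 (4.09% to 9.46% of all genes) and 13 to 20 without overlap. Fewer libraries leave fewer chances to overlap: without NP200 1 the share over all genes was 23%, and without CON 3 26.8%. Without NP200 1 and CON 3 together, 30 genes and 1 member, Acsm3, were called, 32 members (41.7% of all genes) did not overlap and the median was 0.014. For the other moved values the cause was not tested. Among the remaining alternatives, the older quasi-likelihood method, added after the data were seen, gave 9 members at an unadjusted p under 0.05 (7.19% of all genes). The replicate block, for numbers that may not pair the mice, gave 0 called genes. It left 9 members at an unadjusted p under 0.05 (7.78% of all genes). Correlations of same-numbered deviations were 0.04, -0.02 and 0.10, and not every mouse was closest to its own number. With 3 mice a group, differences well under 0.18 log2 units could not be told from 0.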

Other observations

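Transcripts of fat cell lipid handling that are outside the member list were uneven among the kidneys. Fabp4, a fatty acid binding protein of fat cells and capillaries, measured 98.9, 33.3 and 30.6 CPM in NP200 kidneys, against 31.6, 38.1 and 45.1 CPM in CON kidneys. Plin4, a droplet coat protein, measured 43.4, 6.09 and 7.54 CPM in NP200 kidneys, against 6.43, 5.98 and 17.1 CPM in CON kidneys. Pparg, the nuclear receptor of fat cell formation, measured 7.23, 1.84 and 1.25 CPM in NP200 kidneys, against 1.60, 2.34 and 2.21 CPM in CON kidneys. In all 3 genes NP200 1 was the highest of the 6 kidneys. The log2 fold change was 0.51 (SE 0.37) for Fabp4, 0.98 (SE 0.66) for Plin4 and 0.81 (SE 0.54) for Pparg, with 95% intervals that included 0.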
